A study of Homo sapiens with 4 samples.

Results

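The kallikrein cluster is a run of serine protease genes on human chromosome 19 that holds KLK3, the gene of prostate-specific antigen, and its neighbour KLK2. It was defined by position, as all 40 kb bins of the deposited lamin B1 profiles that overlap hg19 chr19:51300000-51600000. This gave 8 bins, from 51280001 to 51600000, of the 71569 bins with a value in both cell lines, and 25 bins on each side (1 Mb) served as context. The cluster was named for 10 genes (KLK1, KLK15, KLK3, KLK2, KLK4, KLK5, KLK6, KLK7, KLK10 and KLK11).

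The profiles come from ChIP-seq (immunoprecipitation of fixed chromatin, then sequencing) for lamin B1 in the prostate cancer cell lines LNCaP and VCaP. LNCaP is from an adenocarcinoma and VCaP from a bone metastasis. The site that LNCaP was taken from is not given here, so the lines do not stand for primary tumour against metastasis. The cells carried no labelled treatment, grew in RPMI (LNCaP) or DMEM F12 (VCaP) with fetal bovine serum, and were fixed in 1% formaldehyde for 10 min. A single ChIP library and a single antibody-free input library represent each line, so the 4 libraries form 4 groups of 1 and no difference has a replicate check. Medium and cell line cannot be told apart, and the number of reads behind each bin is unknown.

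Lamin B1 is a component of the nuclear lamina, the protein mesh beneath the inner nuclear membrane, and chromatin recovered with it is taken as lying near that mesh. Such chromatin is on the whole poor in genes and in transcription. The kallikrein genes encode secreted proteases that are made as inactive precursors and cleaved to become active. In prostate epithelium KLK3 and KLK2 are classical targets of the androgen receptor, and their products enter the seminal fluid.

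In the gene table the run holds 15 protein-coding kallikrein genes and 1 pseudogene. From the lower coordinate it begins with KLK1, the tissue kallikrein that releases kinins, followed by KLK15, KLK3, KLK2, the pseudogene KLKP1 and KLK4, a protease also known from tooth enamel. After these come KLK5, KLK6, KLK7, KLK8, KLK9, KLK10, KLK11, KLK12, KLK13 and KLK14. The kallikreins listed here as androgen-regulated in the prostate (KLK15, KLK3, KLK2 and KLK4) are number 2, 3, 4 and 6 in this order. This list is a choice and need not hold every kallikrein made in the prostate. The kallikreins listed for the shedding of skin cells and the skin barrier (KLK5, KLK7, KLK8 and KLK14) are number 7, 9, 10 and 16. The nearest protein-coding genes outside the run are ACP4 on the lower side and CTU1 on the higher side, the latter followed by SIGLEC9 and SIGLEC7. The gene table is of GRCh38 and the bins are of hg19, so only this order was used, and no bin was assigned to a single gene.

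KLK3 and KLK2 are shown by sequence because they are the pair for which the cluster is known. Of the 10 genes, 9 had at least 1 promoter in the RefSeq table of GRCh38.p14 (250 bases before to 50 after a start), with 15 promoters in all. KLK3 and KLK2 lie on the plus strand, and the other 7 matched genes lie on the minus strand. The KLK3 promoter is chr19:50854665-50854964 and the KLK2 promoter chr19:50873189-50873488, both in GRCh38.p14 on the plus strand and not comparable with the hg19 bins. Capitals mark 15 bases that begin with the androgen receptor hexamer AGAACA in KLK3, and the matching bases in KLK2:
KLK3: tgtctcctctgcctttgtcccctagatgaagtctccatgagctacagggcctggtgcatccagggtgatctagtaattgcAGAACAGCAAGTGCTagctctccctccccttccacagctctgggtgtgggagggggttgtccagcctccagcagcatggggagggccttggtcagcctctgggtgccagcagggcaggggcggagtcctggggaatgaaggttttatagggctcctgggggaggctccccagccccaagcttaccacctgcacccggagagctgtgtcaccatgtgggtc
KLK2: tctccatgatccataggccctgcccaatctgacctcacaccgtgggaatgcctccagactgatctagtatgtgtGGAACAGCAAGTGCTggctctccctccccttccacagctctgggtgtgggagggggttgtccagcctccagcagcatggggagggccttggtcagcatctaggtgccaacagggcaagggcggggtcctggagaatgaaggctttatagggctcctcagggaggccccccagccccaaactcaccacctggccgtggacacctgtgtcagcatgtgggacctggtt
The capitals begin 170 bases before the start in KLK3 and 176 bases before it in KLK2. They differ at 1 position, A1G, counted from the first capital, with the KLK3 base first. Aligned end to end, the 2 promoters were identical at 239 of 306 aligned positions (78.1%). The 14 capitals from the second on (GAACAGCAAGTGCT, either strand) were found in 2 of the 35116 promoters of the table, those of KLK3 and KLK2. The hexamer AGAACA or its reverse complement TGTTCT was in 1 of the 15 promoters of the 10 genes, that of KLK3, and in 14.8% of all promoters. The TATA box letters TATAAA, or TTTATA on the other strand, were in 3 of the 15, those of KLK15, KLK2 and KLK3, and in 11.5% of all. The GATA letters AGATAA, or TTATCT, were in 3 of the 15, all of KLK7, and in 10.3% of all. The lamin B1 bins are far wider than a promoter, so these letters describe the genes and not the signal.

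Across the cluster, lamin B1 enrichment formed a trough at the same bins in both lines, set on a much higher level in VCaP. Values are log2 of ChIP over input, each averaged with the 2 entries before it, and the noise of a single bin, from bins 120 kb apart, had an SD of 0.15 in LNCaP and 0.22 in VCaP. In LNCaP the 8 bins, from the lower coordinate up, had log2 enrichment of -0.20, -0.39, -0.60, -0.54, -0.40, -0.13, 0.03 and -0.05. In VCaP the same bins had log2 enrichment of 0.72, 0.48, -0.03, 0.01, 0.31, 0.82, 0.93 and 0.62. The lowest bin was the same in both lines, from 51360001 to 51400000, and so was the highest, from 51520001 to 51560000. VCaP had the higher value in each of the 8 bins, as in 91.6% of chromosome 19 bins, although the lowest VCaP bin lay below the highest LNCaP bin.

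**Figure D1:**
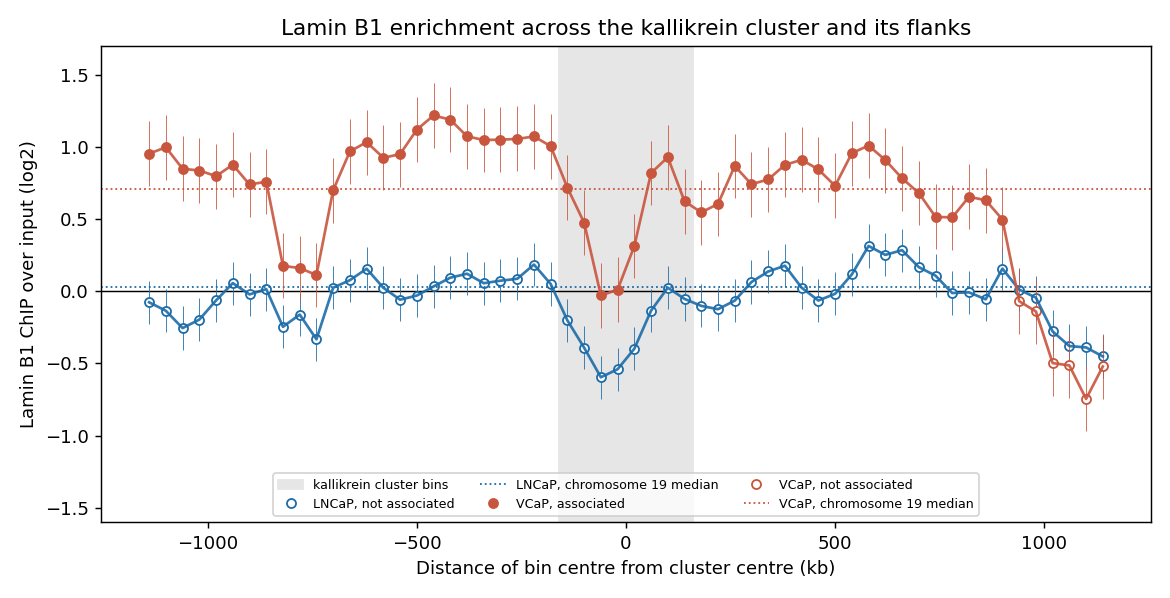
Log2 lamin B1 ChIP over input in 58 bins of 40 kb, plotted by distance from the cluster centre in kb, with LNCaP in blue and VCaP in red. Error bars are 1 noise SD of a bin (0.15 and 0.22), filled points are bins the deposited model calls associated, and dotted lines are the chromosome 19 medians (0.03 and 0.71). Both lines dip inside the shaded cluster.

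The mean over the cluster was -0.29 ± 0.09 in LNCaP and 0.48 ± 0.14 in VCaP, on the log2 scale (noise SD of the mean of 8 averaged bins). Both means lay below the median of chromosome 19 in their own line, which was 0.03 in LNCaP and 0.71 in VCaP. The cluster was 0.32 ± 0.09 lower than that median in LNCaP, with 8 of 8 bins below it. In VCaP it was 0.23 ± 0.14 lower, with 5 of 8 bins below it, which is less than 2 noise SD. Among all 65830 runs of 8 adjacent bins in the genome, 11.4% had a lower mean than the cluster in LNCaP and 78.0% in VCaP. Within chromosome 19 the ranks nearly coincided, with 18.5% of 1284 runs lower in LNCaP and 18.1% lower in VCaP.

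The deposited hidden Markov model placed the cluster in opposite states in the lines. In LNCaP 0 of 8 bins were associated, against 37.9% of all common bins and 34.3% of those on chromosome 19. In VCaP 8 of 8 were associated, against 44.4% of all common bins and 95.5% of those on chromosome 19. The 8 bins were thus associated in VCaP only, a class that held 23.8% of all common bins and 62.2% of chromosome 19, so the cluster had the state common on its chromosome.

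By the deposited states, the LNCaP run around the cluster was 22.2 Mb of bins outside the associated state from 36880001 to the chromosome end at 59128983. The cluster began 14.4 Mb inside it. Its lowest bin, at -0.60, was no extreme there, as 149 of the 556 bins of the run were lower. In VCaP the cluster lay in an associated run of 7.44 Mb, from 44920001 to 52360000, which ended 0.76 Mb beyond the cluster. The lowest cluster bin, at -0.03, was the second lowest of the 186 bins of that run and 1 of 2 at or below 0. Over the genome, 0.631% of VCaP associated bins were at or below 0. With enrichment above 0 taken as the state in place of the model, the longest run touching the cluster was 0.24 Mb in LNCaP and 3.88 Mb in VCaP, and 442 of the 556 bins of the LNCaP run were at or below 0. In VCaP the kallikrein bins were labelled associated although the middle of their trough had next to no enrichment.

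The largest fall and the largest rise over 120 kb that ended in a cluster bin were at the same bins in both lines. On the lower side, LNCaP went from 0.05 in the bin starting at 51240001 to -0.60 in the bin starting at 51360001, a change of -0.65 over 120 kb. VCaP went from 1.01 to -0.03 between the same bins, a change of -1.03. On the higher side the change between the bins starting at 51400001 and 51520001 was 0.56 in LNCaP and 0.92 in VCaP. The VCaP flanks held changes of about the same size. In VCaP the lower flank held a rise of 0.92, from 0.11 in the bin starting at 50680001 to 1.03 in the bin starting at 50800001. The higher flank held a VCaP fall, a change of -0.99, between the bins starting at 52320001 and 52440001. The largest LNCaP changes within the flanks were between these same pairs of bins, at 0.49 and -0.44.

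Undoing the 3-entry average sharpened the trough and placed it in the lower-coordinate bins, toward the end of the cluster where the gene order begins. Which kallikrein or neighbouring genes lie in these bins was not determined, as the gene table is of another genome build. With the average undone the noise SD of a bin rose to 0.22 in LNCaP and 0.33 in VCaP. In LNCaP the 4 lower bins were -0.59, -0.37, -0.83 and -0.42 on the undone log2 scale, and the 4 higher bins were 0.05, -0.04, 0.06 and -0.18. In VCaP the 4 lower bins were 0.15, 0.24, -0.48 and 0.27, and the 4 higher bins were 1.15, 1.04, 0.60 and 0.23. In LNCaP each of the 4 lower bins lay below each of the 4 higher bins, while in VCaP the last bin of the cluster lay among the lower ones. The split was chosen after these values were seen, so this separation is not a test. The lowest bin was again that from 51360001 to 51400000 in both lines.

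**Figure D2:**
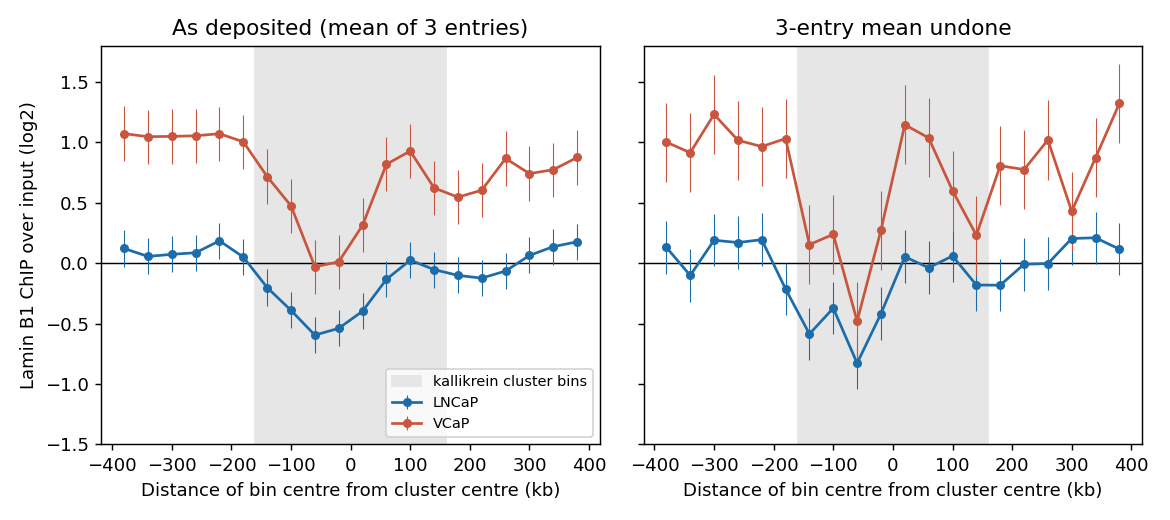
Log2 lamin B1 ChIP over input against distance from the cluster centre in kb, as deposited (left) and with the 3-entry mean undone (right), for LNCaP (blue) and VCaP (red), with error bars of 1 noise SD. On the right the 4 lower-coordinate cluster bins average -0.55 in LNCaP and 0.05 in VCaP, and the 4 others average -0.03 and 0.75.

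On this scale the 4 lower-coordinate bins averaged -0.55 in LNCaP and 0.05 in VCaP, and the 4 higher-coordinate bins averaged -0.03 and 0.75. Lower minus higher bins came to -0.53 ± 0.15 in LNCaP and to -0.71 ± 0.23 in VCaP, both more than 2 noise SD. As deposited, these differences were -0.29 ± 0.18 and -0.38 ± 0.28, and neither passed 2 noise SD. With medians in place of means the LNCaP value was -0.37, just past 2 noise SD of a mean. The noise SD of a median was not obtained, so whether it passed its own noise is unknown. This split of the cluster was chosen after the values were seen, so passing 2 noise SD on it is not a test. The share of other runs that would pass was not obtained. Compared with the 25 bins on each of its own sides, the lower 4 bins differed by -0.56 in LNCaP and -0.71 in VCaP. Of 1291 runs of 4 bins on chromosome 19, 0.775% were lower against their flanks in LNCaP and 1.01% in VCaP, and 1 run, the kallikrein bins themselves, was as low in both. In the genome 193 of 66139 runs (0.292%) were as low in both lines, many of them overlapping. These ranks describe a stretch picked for being low. The whole cluster, which was defined by position, was ranked against its flanks on the deposited values. On chromosome 19, 30 of 1284 runs of its length (2.34%), the cluster included, were as low in both lines. In the genome 3507 of 65830 such runs (5.33%) were as low in both, and these runs overlap too.

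As a whole, the cluster lay below its flanks by more than 2 noise SD in LNCaP, while in VCaP passing 2 noise SD depended on the flank and on the averaging of bins. In LNCaP the 50 flank bins averaged -0.01, and the cluster mean differed from theirs by -0.27 ± 0.10 (noise SD). Among all runs of 8 bins, 16.3% in the genome and 13% on chromosome 19 lay below their flanks by over 2 noise SD in LNCaP. In VCaP the flank bins averaged 0.66, and the cluster mean differed from theirs by -0.18 ± 0.15, where 11.8% of runs in the genome and 8.41% on chromosome 19 passed 2 noise SD. With the average undone the VCaP difference was -0.25 ± 0.12, just past 2 noise SD. As deposited, against the lower flank, at 0.87, it was -0.38 ± 0.16, and against the higher flank, at 0.46, it was 0.02 ± 0.16. With flanks of 0.5 Mb it was -0.46 ± 0.16, and with flanks of 2 Mb the LNCaP value was -0.14 ± 0.10, under 2 noise SD. The depth of the cluster below its flanks differed between the lines by 0.09 ± 0.18, so no difference in depth was detectable.

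**Figure D3:**
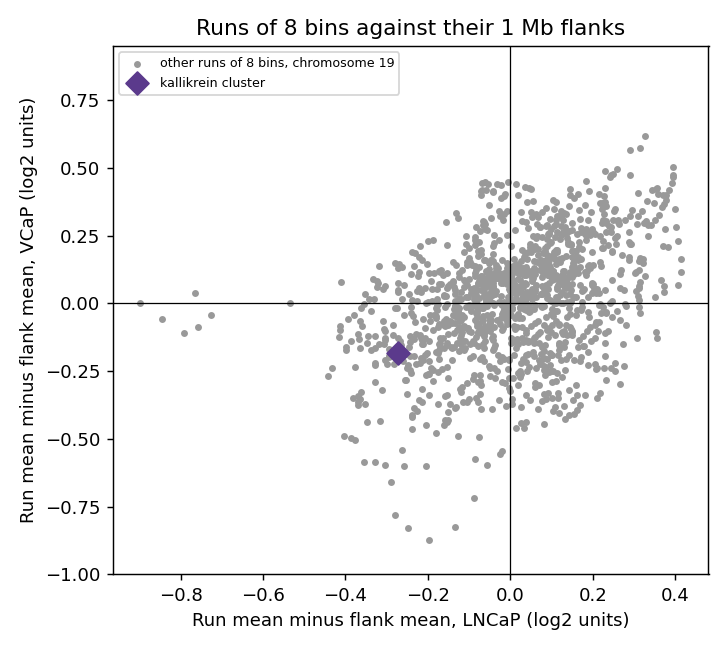
Each point is a run of 8 adjacent bins on chromosome 19, placed by its mean minus that of the 25 bins on each side, in LNCaP (x axis) and VCaP (y axis), both in log2 units. The kallikrein cluster (diamond) lies at -0.27 and -0.18, below 0 in both lines and inside the cloud of 1284 overlapping runs.

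In the higher flank the VCaP profile left the associated state. The last associated bin ended at 52360000, and the 6 bins after it, up to 52600000, were outside the state in both lines. The lowest of them was -0.75 in VCaP (52520001 to 52560000) and -0.45 in LNCaP (52560001 to 52600000). The highest bin of the higher flank was that from 52000001 to 52040000 in both lines, at 0.31 in LNCaP and 1.01 in VCaP. In the lower flank the lowest bin was also shared, from 50680001 to 50720000, at -0.33 in LNCaP and 0.11 in VCaP. The highest bins of the lower flank differed, with 0.19 in LNCaP from 51200001 to 51240000 and 1.22 in VCaP from 50960001 to 51000000.

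Within the cluster and its flanks the profiles of the lines correlated more than over chromosome 19 as a whole. Other stretches of the same lengths were not scored, so it is unknown whether this is particular to the kallikrein genes. Across the 58 bins Pearson r was 0.681 and Spearman rho 0.593, and without the cluster, over 50 flank bins, r was 0.687 and rho 0.517. Over the 8 cluster bins alone r was 0.943 and rho 0.929, with neighbouring bins sharing averaged entries. On the whole of chromosome 19 r was 0.269 and rho 0.272. With the average undone r was 0.667 for the 58 bins, 0.894 for the 8 cluster bins and 0.315 for chromosome 19. These are descriptions across bins of the same 4 libraries, not tests.

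VCaP was higher than LNCaP in every kallikrein bin, which was also so in 91.6% of chromosome 19 bins and 58.1% of all common bins. Of the flank bins, 44 of 50 were higher in VCaP. The difference, bin by bin from the lower coordinate, was 0.92, 0.87, 0.57, 0.55, 0.71, 0.95, 0.90 and 0.68 log2 units, with a mean of 0.77 ± 0.17 (noise SD). As deposited it was smallest in the bins at the bottom of the trough, but its SD over the 8 bins, 0.16, was below the noise SD of a single difference. The noise SD of a single difference was 0.27, and 8 of 8 bins passed 2 noise SD (0.54), against 19% of all common bins and 59% of chromosome 19 in this direction. In the opposite direction 0 of 8 passed, against 7.84% of all common bins and 0 of 1401 bins on chromosome 19. Of the flank bins 36 of 50 passed, 22 of 25 on the lower side and 14 of 25 on the higher side. With the average undone the mean difference was 0.69 ± 0.14. Then 2 of 8 cluster bins passed the larger threshold of 0.79, against 24 of 50 flank bins, and the share of all bins past it was not obtained. The smallest undone differences in the cluster were 0.35 in the lowest bin and 0.41 in the last bin.

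**Figure D4:**
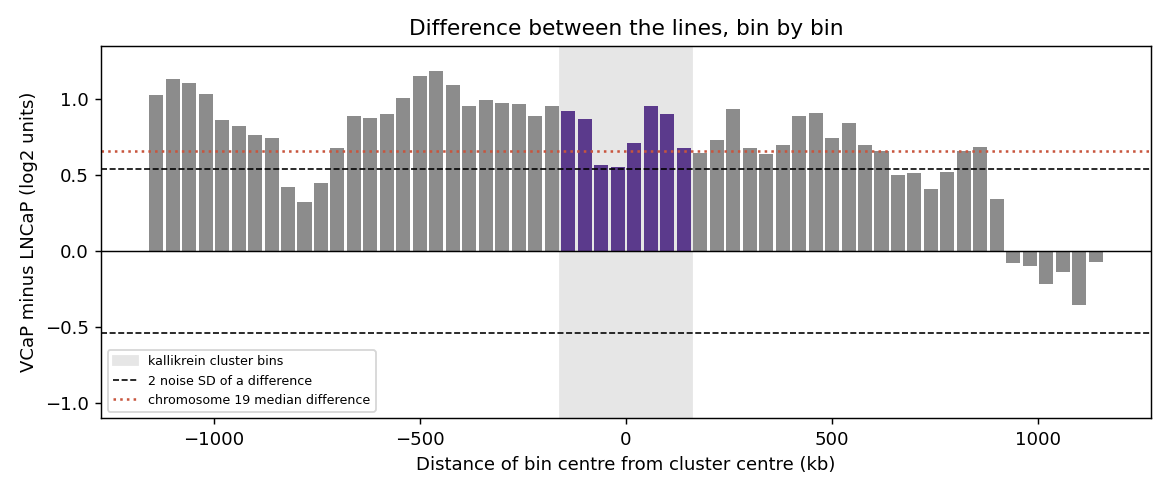
VCaP minus LNCaP in log2 units for the 58 bins by distance from the cluster centre in kb, with cluster bins in purple and flank bins in grey. Dashed lines mark 2 noise SD (0.54) above and below 0, and the dotted line marks the chromosome 19 median of 0.66, on both sides of which the cluster bins lie.

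The difference at the kallikrein genes was close to that of their chromosome. The median difference over chromosome 19 was 0.66, and the cluster mean lay 0.11 ± 0.17 above it, which is within 1 noise SD, with 2 of 8 bins below it. Centred on the chromosome 19 median of each line, the difference at the cluster was 0.09 ± 0.17. Then 0 of 8 cluster bins and 6 of 50 flank bins passed 2 noise SD, and the share of all bins was not obtained. Among runs of 8 bins, 92.8% in the genome had a smaller difference than the cluster, and 60.5% on chromosome 19. The sign was opposite in 6 of 8 cluster bins, below 0 in LNCaP and above 0 in VCaP, against 23.2% of all common bins and 45.4% of chromosome 19. In 1 of 8 bins, the lowest, both lines were below 0, against 19.9% of all common bins and 1.71% of chromosome 19.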

How the data were processed

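The authors deposited, for each line, a table of log2 enrichment (lamin B1 ChIP over input) and a table that labels bins AD or iAD, which per the file names came from a hidden Markov model. The submitters' processing notes name hg19 and STAR. How ChIP and input were scaled, and the filters, are not given in the sources used here. AD had the higher mean log2 value in both lines and was taken as associated.

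A deposited value was taken to average 3 consecutive entries, the last being the one it is listed under. Solving for the single entries brought the median absolute value of entries wider than 40 kb, which stand for stretches of equal value, from 0.21 to 0.0066 in LNCaP and from 0.33 to 0.0067 in VCaP. Free constants were set by medians along each chromosome. Noise is the median absolute deviation of the difference between bins 3 apart, scaled by 1.4826 and divided by the square root of 2. Means of deposited bins count 1 separate value per 3 bins, and differences between lines add both noises in quadrature. Noise from bins includes true change along the chromosome and does not replace replicates. No p-value was computed. Depth is unknown.

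Runs of 8 bins, with 25 bins on each side, were taken over every unbroken stretch of common bins. The named genes are the 10 given, the other kallikrein genes of the run and its neighbours. The cluster, its genes, the lists and the alternatives were chosen with earlier results of these data known. All columns were mapped to a line. The undoing of the average, the noise and the contrast with flanks were run on simulated data. The simulated troughs had a depth of -0.5 in a flat profile without averaging. Their recovery therefore does not cover averaged profiles or the smaller depths of the cluster. Python 3.11.15, numpy 2.4.6, pandas 2.3.3, scipy 1.17.1, biopython 1.88 and matplotlib 3.10.9 were used.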

Additional observations from a re-analysis of the deposited data

Results flagged for a closer look

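The cluster mean had opposite signs in the lines, at -0.29 for LNCaP and 0.48 for VCaP on the log2 scale. With 1 lamin B1 and 1 input library per line, this difference was not tested. The zero point of each line moves with how ChIP and input were scaled, and centred on the chromosome 19 median of its line the VCaP mean was also below 0, at -0.23, with -0.32 in LNCaP.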

How the results depend on the processing

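For 20 results, 106 values were obtained under other settings. Of the 100 for the 16 results that answer a comparison, 78 stayed within 1 noise SD (counts and lengths within 1.5 times, percentiles within the range that 1 noise SD of the mean allows), 21 moved further, and 1 went from beyond 2 noise SD to the opposite sign. In all, 4 of the 100 had the opposite sign to the reported value, namely the VCaP mean centred on the chromosome 19 median, the VCaP cluster minus the higher flank, and the difference of contrasts with flanks of 0.5 Mb and with the lower flank alone. The difference between lines was above 0 in 8 of 8 alternatives, the LNCaP cluster lay below its flanks in 10 of 10 and the VCaP cluster in 9 of 10. These contrasts passed 2 noise SD in 9 of 10 in LNCaP and in 3 of 10 in VCaP, where the alternative with medians was held against the noise SD of means. Centred on the genome median, the VCaP mean was 0.29. Centred on the chromosome 19 median it reversed to -0.23, the difference between lines was 0.091, and 0 cluster and 6 flank bins passed 2 noise SD. In units of the interquartile range, by construction another scale, the difference was 1.20, the LNCaP cluster minus flanks -0.57 and the difference of these contrasts 0.27. Flanks of 0.5 Mb gave -0.46 in VCaP and a difference of contrasts of -0.11. Flanks of 2 Mb gave -0.14 in LNCaP. The lower flank alone gave -0.38 in VCaP and a difference of contrasts of -0.12, and the higher flank alone gave 0.020 and 0.30, where 6 bins lie past the end of the VCaP run. With enrichment over 0 as the state, 1 cluster bin was associated in LNCaP, against 56.9% of all common bins and 52.9% of those on chromosome 19. The longest run touching the cluster was then 0.24 Mb in LNCaP and 3.88 Mb in VCaP. With enrichment over 0.5, 4 VCaP bins were associated. With the average undone, which changes both the values and the threshold, 2 cluster and 24 flank bins passed. A required difference over 1 left 0 cluster and 8 flank bins. The noise from the difference series, chosen after seeing the data, left 8 cluster and 42 flank bins. Apart from enrichment over 0, the shares of all bins called under these other settings were not obtained, so these counts describe the settings only. Where not stated, the cause was not tested. No paired analysis was possible because only 1 library stands in a group. As depth is unknown, counting error limits could not be set.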

Other observations

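A second low stretch common to both lines lay on the lower side of the kallikrein cluster. The 3 deposited bins from 50600001 to 50720000 were -0.25, -0.16 and -0.33 in LNCaP and 0.18, 0.16 and 0.11 in VCaP. With the average undone it narrowed to 1 bin, from 50600001 to 50640000, at -0.77 in LNCaP and -0.74 in VCaP. The 2 bins after it were at 0.05 and -0.27 in LNCaP and at 0.43 and 0.65 in VCaP. In the kallikrein cluster, by contrast, 4 adjacent bins were low in LNCaP with the average undone. In VCaP these 4 bins were 0.15, 0.24, -0.48 and 0.27, all below the undone flank mean of 0.65, but only the third lay below 0. The last VCaP cluster bin, outside the 4, was at 0.23. In that single flank bin the lines differed by 0.03 log2 units, less than the noise SD of 0.39 of such a difference, while the lowest kallikrein bin differed by 0.35, also within that noise SD. These bins were chosen after their values were seen.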
